A study of Mus musculus with 40 samples.

Results

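Hematopoietic progenitor cells of mice at postnatal day 14 (P14, 14 days old) were compared between 2 genotypes that share a mutation. Both groups carry FLT3-ITD. One carries NUP98-HOXD13 as well (NHD13, genotype FLT3-ITD/NUP98-HOXD13) and the other carries Runx1-HET (genotype FLT3-ITD/Runx1-HET), with 4 libraries each. These 8 samples of the 40 in the series were taken by their labels. The fit used all 24 P14 libraries, 4 in each of 6 groups, the others being wild type, FLT3-ITD, NUP98-HOXD13 and Runx1-HET. Below, the groups are written Flt3-ITD/NHD13 and Flt3-ITD/Runx1-HET and mean the libraries so labelled. The source is given as hematopoietic progenitor or multipotent progenitor (MPP) cells, and the labels name no sort, promoter, Cre or deleted exon. Whether each library came from its own animal is not stated either. The p-values below therefore reflect only how far these samples lie from each other, which may be technical.

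FLT3 is a receptor tyrosine kinase of early blood progenitors, and its internal tandem duplication leaves the kinase active without ligand and signals through STAT5 and the MAPK pathway. NUP98-HOXD13 joins a nuclear pore protein to the DNA-binding part of a homeobox factor and is known for high HOX cluster expression in blood progenitors. RUNX1 is a core transcription factor of definitive hematopoiesis that binds DNA together with CBFB, and loss of 1 copy is found in familial platelet disorder and in leukemia. Type I interferon-stimulated genes are the antiviral program that cells switch on when interferon binds its receptor.

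Total gene counts per library ranged from 16184867 to 26304963 over the 8 libraries, and mitochondrial genes took 1.28% to 1.97% of them in Flt3-ITD/NHD13 and 1.77% to 2.23% in Flt3-ITD/Runx1-HET. By Xist and Y-linked counts, 1 of the 4 Flt3-ITD/NHD13 libraries (library 2) and 2 of the 4 Flt3-ITD/Runx1-HET libraries (libraries 1 and 2) were female, so sex was not balanced. Counts of calls within the 3 and 2 male libraries are given beside those of the gene lists, in a fit restricted to the male P14 libraries that was added after the data were seen. That fit has fewer libraries, so fewer calls are also a matter of its size. The progenitor markers Kit, Cd34, Cd48, Flt3, Ly6a, Ptprc, Myb and Adgrg1 summed to 6548 to 7123 CPM (gene counts relative to the scaled library total) in Flt3-ITD/NHD13 and to 7217 to 8596 CPM in Flt3-ITD/Runx1-HET.

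Interferon-stimulated genes differed in nearly every member, as described below, and the promoters of 3 of them are shown because they hold the letters of an interferon-stimulated response element. The windows are the 250 bases before the start of each gene in RefSeq (GRCm38.p6), written 5′ to 3′ along the gene. Capitals mark the letters GAAANNGAAA or their reverse complement, and overlapping matches run together. Ifit3 lies at chr19:34583279-34583528, plus strand, Ifit1 at chr19:34640639-34640888, plus strand and Isg15 at chr4:156200819-156201068, minus strand.
Ifit3: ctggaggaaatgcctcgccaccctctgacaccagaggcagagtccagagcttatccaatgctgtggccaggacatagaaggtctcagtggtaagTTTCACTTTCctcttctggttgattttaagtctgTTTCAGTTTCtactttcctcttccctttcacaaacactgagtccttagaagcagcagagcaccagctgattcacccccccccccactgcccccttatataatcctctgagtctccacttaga
Ifit1: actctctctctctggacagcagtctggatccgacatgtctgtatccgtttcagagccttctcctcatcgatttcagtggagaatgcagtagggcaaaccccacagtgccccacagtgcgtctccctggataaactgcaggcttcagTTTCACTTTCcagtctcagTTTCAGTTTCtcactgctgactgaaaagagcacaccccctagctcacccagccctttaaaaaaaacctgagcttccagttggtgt
Isg15: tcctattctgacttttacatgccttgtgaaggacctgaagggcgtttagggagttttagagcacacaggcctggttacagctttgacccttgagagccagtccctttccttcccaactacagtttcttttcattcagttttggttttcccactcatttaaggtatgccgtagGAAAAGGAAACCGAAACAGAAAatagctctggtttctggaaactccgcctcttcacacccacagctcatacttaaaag
Of 43 type I interferon-stimulated genes, 32 had a window and 12 of these held a match, while 3.3% of the 10459 tested genes with a window did. With under 80% of the list matched to a window, the comparison of its share with that of all tested genes is void. Among the lymphoid genes described below, the windows of Rag1 and Ebf1 are shown for the RUNX core letters TGTGGT (capitals, either strand counted). Igll1 held a match too and is not shown, and Il7r held none. Rag1, which cuts DNA at antigen receptor genes, lies at chr2:101649533-101649782, minus strand, and Ebf1, the B-lineage factor, at chr11:44617850-44618099, plus strand.
Rag1: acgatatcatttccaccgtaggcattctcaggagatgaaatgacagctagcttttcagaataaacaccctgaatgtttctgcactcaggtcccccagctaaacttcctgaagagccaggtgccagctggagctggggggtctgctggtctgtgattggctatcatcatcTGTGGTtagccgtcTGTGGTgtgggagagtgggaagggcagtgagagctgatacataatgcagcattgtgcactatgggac
Ebf1: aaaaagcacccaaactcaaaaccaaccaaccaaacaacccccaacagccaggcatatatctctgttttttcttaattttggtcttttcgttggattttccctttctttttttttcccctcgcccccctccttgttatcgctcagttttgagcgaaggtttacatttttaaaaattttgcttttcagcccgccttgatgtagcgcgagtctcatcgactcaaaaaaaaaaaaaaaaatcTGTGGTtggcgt
Of 22 lymphoid genes, 18 had a window and 5 of these held TGTGGT, beside 13.3% of the 10459 tested genes with a window. A gene with several windows counted once if any matched. Ebf1 had 2 windows, and the first with a match is shown. A match is a string of letters in this window, not a binding site.

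Across 14394 tested genes, 2954 (20.5%) passed at a Benjamini-Hochberg adjusted p under 0.05 in edgeR's quasi-likelihood test. Of these, 1512 (10.5% of tested genes) were higher in Flt3-ITD/NHD13 and 1442 (10%) were lower. Counts of calls in the gene lists below are to be read beside these shares. In 2945 genes (20.5%), every library of a group lay above every library of the other, 1556 with Flt3-ITD/NHD13 above. The median log2 fold change over all genes was 0.0027, and 1303 passing genes differed at least 2-fold, 649 higher and 654 lower. Within the male libraries 1709 genes passed, 961 higher and 748 lower. All log2 fold changes below are Flt3-ITD/NHD13 minus Flt3-ITD/Runx1-HET, given ± SE with 4 libraries a group, and every adjusted p is from edgeR over all tested genes. A gene called higher or lower below passed this test, and its libraries are listed in the order 1 to 4. In bulk libraries, fewer cells of a type and less RNA per cell cannot be told apart.

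**Figure D1:**
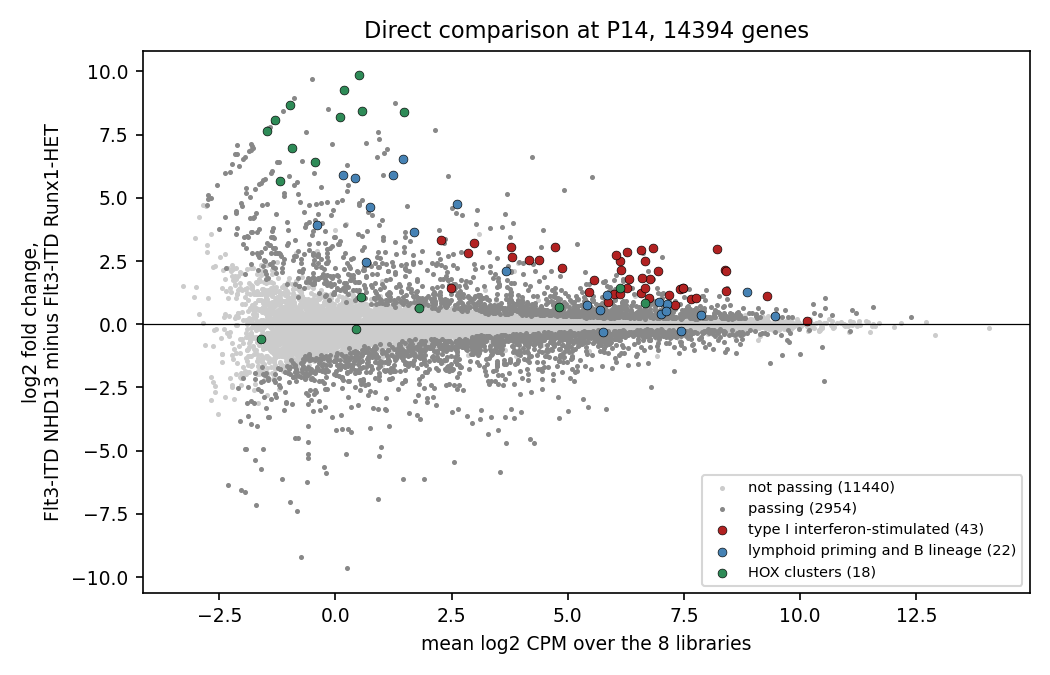
Log2 fold change of each of 14394 tested genes (Flt3-ITD/NHD13 minus Flt3-ITD/Runx1-HET, vertical axis) against its mean log2 CPM over the 8 libraries (horizontal axis); dark grey points passed, and 3 gene lists are coloured. Interferon-stimulated genes lie above 0 at middle and high expression, and most HOX genes lie near the upper edge, where the fold of a gene with hardly any counts in Flt3-ITD/Runx1-HET depends on the prior count.

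The mutated genes themselves were read first. Hoxd13 (ENSMUSG00000001819, GRCm38 chromosome 2), whose DNA-binding part is in the fusion, had 216 counts in Flt3-ITD/NHD13 and 0 in Flt3-ITD/Runx1-HET, summed over 4 libraries each, at least 61.7-fold higher against a floor of 3 counts over the group. Nup98 (chromosome 7), the fusion partner, measured 45.8, 39.5, 49.3 and 45.0 CPM against 34.1, 33.3, 26.2 and 26.0 CPM and was higher by 0.59 ± 0.11 (adjusted p = 0.00033). Flt3 (chromosome 5) measured 616 to 693 CPM against 554 to 636 CPM and did not pass (0.11 ± 0.09, adjusted p = 0.40). Runx1 (ENSMUSG00000022952, chromosome 16, 92601466 to 92826149, minus strand) measured 46.7, 53.8, 56.5 and 54.8 CPM in Flt3-ITD/NHD13 and 84.7, 75.9, 77.1 and 81.9 CPM in Flt3-ITD/Runx1-HET. The groups did not overlap, and Runx1 counts were lower in Flt3-ITD/NHD13 (-0.59 ± 0.13, adjusted p = 0.00082), so the whole-gene count was higher where the label gives a heterozygous Runx1. A whole-gene count does not check the altered allele, and the count goes against a plain reading of the label. Runx1 had 5978 unscaled counts in Flt3-ITD/Runx1-HET beside 4850 in Flt3-ITD, and 4024 in Runx1-HET beside 3777 in wild type. Each is a sum over 4 libraries. Of 53 tested genes within 5 Mb of Runx1, 22.6% passed, near the 20.5% of all genes.

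HOX cluster genes were higher in Flt3-ITD/NHD13 across all 4 clusters, though only Hoxd13 and Hoxd8 were tested in the Hoxd cluster. Part of Hoxd13 is in the fusion, and gene counts cannot tell its reads from those of the fusion, so the Hoxd cluster rests on Hoxd8. Hoxd13 is among the genes counted below. The HOX factors set position along the body axis in the embryo, and the A and B clusters are used by blood stem cells. Of 39 HOX genes, 18 passed the filter on low counts, and of those 15 were higher and 0 lower (14 and 0 within the male libraries). Of the 18, 3 had 0 counts and 7 had 1 to 3 counts in Flt3-ITD/Runx1-HET. Genes that passed the filter only through their level in Flt3-ITD/NHD13 had to differ, so this count is a description. The median fitted log2 fold change of the 18 was 6.69, and 4.97 with the genes of 0 to 3 counts at their counting bounds. The rest of the 39 had too few reads for a test.

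The Hoxc cluster (GRCm38 chromosome 15, 102921103 to 103036852) was nearly without counts in Flt3-ITD/Runx1-HET. Its summed level was 75.5 to 96.4 CPM in Flt3-ITD/NHD13 and 0.117 to 0.307 CPM in Flt3-ITD/Runx1-HET. Hoxc8 measured 15.2 CPM in library 1 and 18.9 to 19.1 CPM in the other libraries of Flt3-ITD/NHD13, against 1 count over the other 4 libraries, a ratio of 1364 with a 95% counting interval of 245 to 53925. Hoxc4 had 1054 counts against 1 (ratio 904, interval 162 to 35735), and Hoxc6 had 1417 against 3 (ratio 405, interval 138 to 1967). All 5 tested Hoxc genes were higher. The Hoxd cluster showed Hoxd13 and Hoxd8 above the filter, both with 0 counts in Flt3-ITD/Runx1-HET, and Hoxd8, named after its values were seen, was at least 41.7-fold higher (146 counts). In the Hoxb cluster 4 of 5 tested genes were higher; the summed level was 16.9 to 21.9 CPM against 0.897 to 2.39 CPM. Hoxb5, which marks long-term stem cells, measured 3.64, 3.96, 4.90 and 3.46 CPM with 346 counts against 3 (ratio 98.9, interval 33.6 to 482). Hoxb4, also named afterwards as the tested Hoxb gene that did not pass, measured 0.565 to 2.04 CPM against 0.698 to 2.27 CPM and did not pass (adjusted p = 0.75).

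The Hoxa cluster was expressed in both groups and differed by less. Its sum was 277 to 302 CPM in Flt3-ITD/NHD13 and 136 to 151 CPM in Flt3-ITD/Runx1-HET. The 4 of 6 tested Hoxa genes that passed lie outside the naming rule and are named after their values were seen. Hoxa9, a self-renewal factor of leukemia, measured 123, 110, 126 and 101 CPM against 45.5, 43.3, 35.5 and 45.5 CPM (1.44 ± 0.11, adjusted p = 3.55e-11). Hoxa3 was higher by 1.10 ± 0.33 (adjusted p = 0.017), Hoxa7 by 0.83 ± 0.08 and Hoxa10 by 0.68 ± 0.14. Among HOX partners the listed genes split. Pbx3, a DNA-binding cofactor of HOX proteins, measured 67.2, 76.1, 79.3 and 82.5 CPM against 1.42, 3.13, 1.79 and 2.40 CPM (5.15 ± 0.20, adjusted p = 3.48e-17). Meis1, the other main cofactor, went the opposite way at 311, 296, 324 and 335 CPM against 519, 492, 522 and 438 CPM (-0.64 ± 0.09, adjusted p = 2.77e-06). Of 6 tested partners, 1 was higher and 3 lower (1 higher and 1 lower within the male libraries).

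Nearly every type I interferon-stimulated gene was higher in Flt3-ITD/NHD13. Of 43 tested genes, 42 were higher and 0 lower, with a median log2 fold change of 1.81 beside 0.0027 over all genes; within the male libraries 39 were higher. In the same 42 genes, all 4 Flt3-ITD/NHD13 libraries lay above all 4 of Flt3-ITD/Runx1-HET. The mean log2 CPM over the list was 7.33, 7.30, 7.07 and 7.21 in the Flt3-ITD/NHD13 libraries and 4.81, 5.33, 5.86 and 4.95 in those of Flt3-ITD/Runx1-HET. The Flt3-ITD/NHD13 libraries sit close together, and library 3 of Flt3-ITD/Runx1-HET is the highest of its group. In the other P14 groups this mean was 5.91 in Flt3-ITD, 6.54 in NHD13, 5.58 in Runx1-HET, and wild type libraries lay at 5.01 to 6.06.

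Ifit3b, of the family that binds foreign RNA, measured 14.5, 20.1, 12.7 and 17.8 CPM against 0.708, 1.17, 3.54 and 1.05 CPM (3.32 ± 0.48, adjusted p = 1.79e-05). It shares sequence with Ifit3, so reads could be split between them. Phf11d measured 26.5, 34.5, 22.9 and 17.5 CPM against 2.88, 2.76, 4.04 and 0.996 CPM (3.23 ± 0.45, adjusted p = 1.07e-05). Ifit3 measured 51.2, 47.1, 31.7 and 48.9 CPM against 2.17, 4.91, 11.5 and 2.52 CPM (3.07 ± 0.57, adjusted p = 0.00055), and within the male libraries its adjusted p was 0.053. Oas2, which makes the activator of an RNA-degrading enzyme, measured 67.9 to 106 CPM against 5.43 to 17.8 CPM (3.05 ± 0.46, adjusted p = 5.69e-05). In these 4 genes the groups did not overlap, and library 3 was again the highest of Flt3-ITD/Runx1-HET. Without that library the fold change was 4.07 for Ifit3b and 3.82 for Ifit3. Ifit1 and Isg15, the ubiquitin-like modifier, are named for the promoters above after their values were seen: Ifit1 was higher by 2.94 ± 0.41 (adjusted p = 2.80e-05) and Isg15 by 2.87 ± 0.36 (adjusted p = 5.29e-06).

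**Figure D2:**
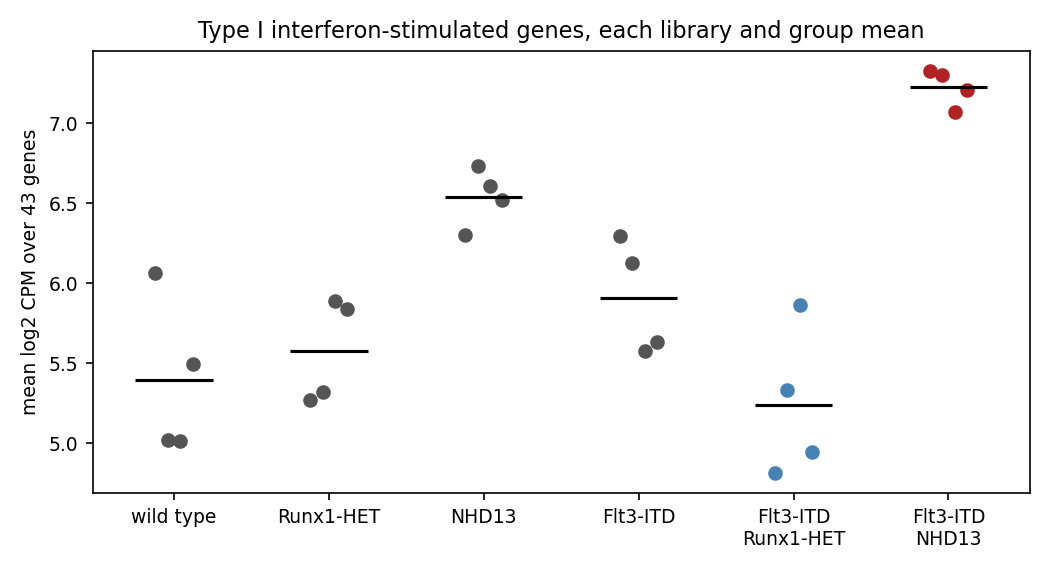
Mean log2 CPM over 43 type I interferon-stimulated genes (vertical axis) in each of the 24 P14 libraries (points) with the mean of each group (bar). The 4 Flt3-ITD/NHD13 libraries lie at 7.07 to 7.33, above every other library, and the 4 Flt3-ITD/Runx1-HET libraries spread from 4.81 to 5.86.

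Antigen presentation genes linked to interferon gamma were higher by less. Of 20 tested genes, 12 were higher and 1 lower, with a median of 0.47 (10 and 0 within the male libraries). Iigp1, an interferon-inducible GTPase, measured 404, 355, 302 and 296 CPM against 43.5, 58.2, 73.3 and 36.7 CPM (2.68 ± 0.39, adjusted p = 4.41e-05). Irgm1, of the same GTPase class, was higher by 1.43 ± 0.15 (adjusted p = 1.23e-07), Nlrc5, the transactivator of MHC class I, by 1.43 ± 0.21 and the peptide transporter Tap1 by 0.95 ± 0.16. The single lower gene, Ciita, the class II transactivator, lost its call when library 2 or 3 of Flt3-ITD/NHD13 or library 1, 3 or 4 of Flt3-ITD/Runx1-HET was left out (adjusted p up to 0.12). Among 14 tested genes of interferon receptors and signalling, 5 were higher and 2 lower; without library 1 or library 2 of Flt3-ITD/Runx1-HET 3 were higher, and within the male libraries 3 were higher and 0 lower. Tlr7, the endosomal receptor for single-stranded RNA, measured 37.6, 28.4, 25.6 and 25.1 CPM against 5.29, 7.36, 9.92 and 4.22 CPM (2.12 ± 0.20, adjusted p = 2.46e-09). Ifngr1, a chain of the interferon gamma receptor, was higher by 0.52 ± 0.10 (adjusted p = 0.00015), while its partner chain Ifngr2 was lower (-0.53 ± 0.13, adjusted p = 0.0030, and 0.33 within the male libraries).

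Most early lymphoid and B-lineage genes were higher in Flt3-ITD/NHD13, and some of them, such as Cd79a, Il7r, Rag1 and Igll1, had hardly any counts in Flt3-ITD/Runx1-HET. The sum over the list was 2953 to 3119 CPM against 1858 to 2162 CPM, so other members were well expressed in both groups. Of 22 tested genes, 20 were higher in Flt3-ITD/NHD13 and 0 lower, with a median of 1.23; within the male libraries 15 were higher. Cd79a, the signalling chain of the B cell receptor, measured 10.3, 33.1, 29.0 and 29.8 CPM against 0.0472, 0.429, 0.0997 and 0.586 CPM (6.53 ± 0.98, adjusted p = 5.49e-05, and 7.14 without library 4 of Flt3-ITD/Runx1-HET). Il7r, the interleukin 7 receptor of lymphoid progenitors, measured 5.25, 11.1, 6.03 and 4.63 CPM against 0, 0.123, 0.149 and 0.176 CPM (5.90 ± 0.56, adjusted p = 2.43e-08). The groups were far apart in both genes, and the lowest Cd79a level of Flt3-ITD/NHD13 was in library 1. Rag1 measured 2.90, 15.1, 9.51 and 6.53 CPM against 0.142, 0.245, 0.0498 and 0.176 CPM (5.79 ± 0.83, adjusted p = 2.51e-05). Igll1, the surrogate light chain of pre-B cells, measured 5.80 to 31.9 CPM against 0 to 0.858 CPM (5.90 ± 1.26, adjusted p = 0.0020, and 0.12 within the male libraries). Without library 2 of Flt3-ITD/Runx1-HET its fold change was 6.80. Ebf1 measured 19.2, 38.4, 48.0 and 34.0 CPM against 0.236, 2.51, 1.45 and 1.05 CPM (4.78 ± 0.69, adjusted p = 4.00e-05). Genes of mature B cells stayed low, with a summed level of 2.10 to 7.61 CPM over 5 markers against 1.18 to 1.76 CPM and Ms4a1 at 0 in all Flt3-ITD/Runx1-HET libraries. Fcer2a, a low-affinity IgE receptor, was lower, at 0 to 0.0759 CPM against 0.472 to 0.938 CPM (adjusted p = 0.00013). Their part in the lymphoid result was not tested.

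**Figure D3:**
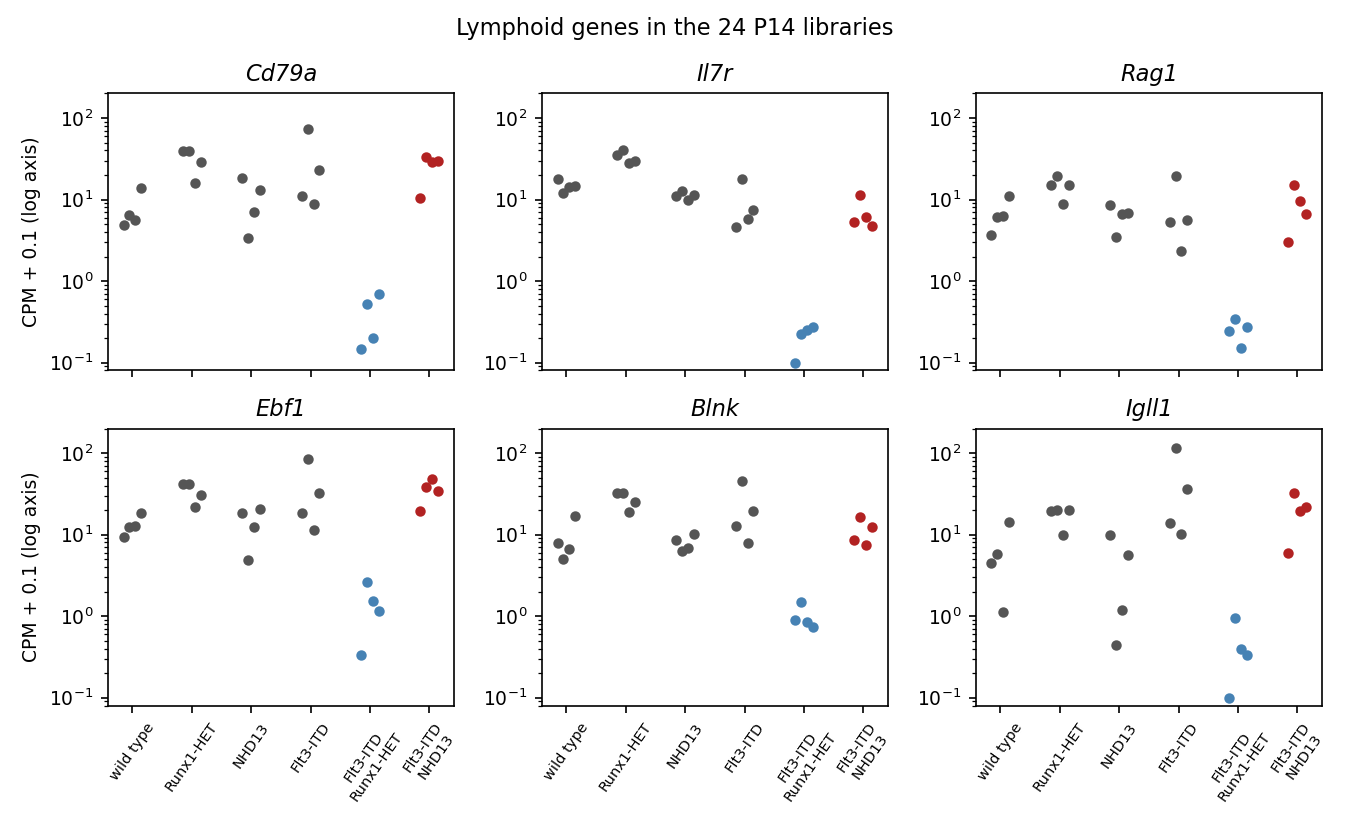
CPM of 6 lymphoid genes (log axis, 0.1 added so that 0 can be drawn) in each of the 24 P14 libraries by group. The 4 Flt3-ITD/Runx1-HET libraries are the lowest in all 6 panels except for Igll1, where the highest of them (0.858 CPM) lies above the lowest NHD13 library.

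Megakaryocyte and erythroid genes leaned to Flt3-ITD/NHD13. Of 22 tested genes, 11 were higher and 3 lower, with a median of 0.79; within the male libraries 6 were higher and 1 lower, and without library 4 of Flt3-ITD/NHD13 or library 2 of Flt3-ITD/Runx1-HET 1 was lower. Pf4, a platelet granule chemokine, measured 90.9, 288, 172 and 250 CPM against 4.96, 4.29, 3.69 and 7.21 CPM (5.32 ± 0.48, adjusted p = 8.42e-08). Car1, an erythroid carbonic anhydrase, measured 63.2, 29.0, 33.0 and 40.9 CPM against 0.519, 1.53, 0.299 and 0.586 CPM (5.87 ± 0.78, adjusted p = 1.52e-05, and 6.47 without library 2 of Flt3-ITD/Runx1-HET). Treml1, a platelet receptor, was higher by 2.79 ± 0.24 (adjusted p = 7.08e-10). Tal1, a factor of the erythroid and megakaryocytic lineages, was lower (-0.58 ± 0.14, adjusted p = 0.0023). Of 9 heme synthesis genes 0 passed in edgeR, with a median of 0.14; DESeq2 called 0 higher and 1 lower.

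Granulocyte-monocyte progenitor genes leaned the other way. Of 23 tested genes, 2 were higher and 8 lower, with a median of -0.87 (2 and 6 within the male libraries). Of these, 5 were lower without library 3 of Flt3-ITD/NHD13 or without library 3 of Flt3-ITD/Runx1-HET, and 1 was higher without library 3 or library 4 of Flt3-ITD/Runx1-HET. Csf3r, the receptor for granulocyte colony-stimulating factor, measured 37.3, 23.6, 29.8 and 26.7 CPM against 52.6, 68.2, 95.2 and 47.2 CPM (-1.17 ± 0.18, adjusted p = 2.77e-05). Csf1r, the macrophage growth factor receptor, was lower (-1.03 ± 0.18, adjusted p = 9.08e-05). Mpo, the granule peroxidase, measured 1096, 819, 481 and 592 CPM against 787, 1739, 3089 and 1043 CPM, so the groups overlapped. Its fold change was -1.16 ± 0.38 (adjusted p = 0.038) and it did not pass without library 2, 3 or 4 of Flt3-ITD/NHD13 (0.067, 0.11 and 0.10) or without library 2 or 3 of Flt3-ITD/Runx1-HET (0.075 and 0.18). Ly86, a partner of toll-like receptors, was higher by 2.39 ± 0.41 (adjusted p = 8.37e-05), and by 3.06 without library 3 of Flt3-ITD/Runx1-HET.

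Stem cell genes moved in both directions, 8 of 24 higher and 8 lower with a median of -0.14 (6 and 6 within the male libraries). Slamf1 (CD150) measured 26.2, 36.7, 23.2 and 25.7 CPM against 6.37, 7.91, 5.63 and 6.92 CPM (2.06 ± 0.18, adjusted p = 6.47e-10), and Nupr1 was higher by 2.43 ± 0.25. Esam, an adhesion molecule of stem cells and endothelium, measured 1.85, 2.19, 4.33 and 2.28 CPM against 50.2, 49.3, 44.0 and 49.0 CPM (-4.17 ± 0.30, adjusted p = 4.57e-10). Ifitm1 measured 563, 635, 729 and 751 CPM against 2952, 3115, 3290 and 3385 CPM (-2.25 ± 0.11, adjusted p = 2.42e-15). Ifitm1 belongs to a family named for induction by interferon, yet it was placed in the stem cell list and was lower where the interferon-stimulated list was higher. Fgd5 (-2.93 ± 0.28) and Tie1, an endothelial receptor kinase, (-2.19 ± 0.22) were lower as well. Of 9 tested fetal progenitor genes, 4 were higher and 0 lower. Within the male libraries 4 were higher and 0 lower as well, but not the same 4. Lin28b, which blocks the let-7 microRNAs and marks fetal progenitors, measured 56.2, 60.1, 58.3 and 50.0 CPM against 3.16, 2.82, 2.04 and 2.87 CPM (4.36 ± 0.17, adjusted p = 2.59e-17). Arid3a was higher by 1.51 ± 0.17 (adjusted p = 7.95e-08).

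Targets of FLT3 signalling moved in both directions, although both groups carry Flt3-ITD. Of 14 STAT5 targets, 7 were lower in Flt3-ITD/NHD13 and 3 higher (median -0.37; 5 and 2 within the male libraries). Without Flt3-ITD, in NHD13 minus Runx1-HET, 7 were lower and 2 higher (median -0.46). Cish, a STAT5-induced suppressor of cytokine signalling, measured 55.4, 51.1, 60.0 and 65.3 CPM against 107, 148, 147 and 151 CPM (-1.25 ± 0.14, adjusted p = 1.28e-07). Pim2, a survival kinase, was lower (-1.39 ± 0.18, adjusted p = 9.57e-07), as were Socs3 (-1.93 ± 0.41) and Id1 (-1.29 ± 0.23). Bcl2l1, which encodes the survival protein BCL-XL, was higher by 0.63 ± 0.15 (adjusted p = 0.0022). Of 11 tested MAPK feedback genes, 4 were higher and 1 lower, with a median of 0.96 (4 and 1 within the male libraries), and 6 did not pass. Without library 3 of Flt3-ITD/Runx1-HET 2 were lower, and without Flt3-ITD 3 were higher and 0 lower. Their summed level overlapped, at 120 to 183 CPM against 70.1 to 124 CPM. Dusp6, the phosphatase that turns off ERK, measured 83.5, 42.8, 44.8 and 44.5 CPM against 17.7, 11.1, 6.98 and 13.8 CPM (2.11 ± 0.28, adjusted p = 9.92e-06). Ccnd1, cyclin D1, measured 14.8, 10.2, 12.8 and 17.0 CPM against 2.83, 2.27, 1.20 and 2.11 CPM (2.70 ± 0.27, adjusted p = 2.51e-08). Dusp5, another ERK phosphatase, was lower (-0.97 ± 0.20, adjusted p = 0.00048). Dusp6 measured 254 to 449 CPM in NHD13 and 163 to 225 CPM in Runx1-HET, where Flt3-ITD is absent, with no overlap with the groups that carry it.

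Transcription factors of blood cells split 6 higher and 7 lower of 26 (4 and 5 within the male libraries). Gata2, a stem and mast cell factor, measured 108, 137, 138 and 138 CPM against 68.9, 55.3, 50.4 and 54.7 CPM (1.18 ± 0.12, adjusted p = 2.18e-08). Irf4, a lymphoid factor, was higher by 2.96 ± 0.58 and Tcf4 by 0.68 ± 0.08, whereas Nfia (-0.94 ± 0.14) and Id2, an inhibitor of E proteins, were lower (Id2 -0.82 ± 0.16). Receptors of cytokines and growth factors split 7 and 7 of 24 (7 and 6 within the male libraries), and Il18r1, the interleukin 18 receptor, was lower (-1.93 ± 0.26, adjusted p = 2.39e-06). Adhesion genes split 7 and 6 of 26 (5 and 5 within the male libraries). Cd34, the progenitor sialomucin, measured 1116, 971, 1028 and 1037 CPM against 1739, 1919, 2262 and 1783 CPM (-0.89 ± 0.08, adjusted p = 2.98e-09). Cd48, which distinguishes multipotent progenitors from stem cells, was lower too (-1.23 ± 0.14, adjusted p = 2.31e-07). Itgal and Itgb2, the chains of LFA-1, were higher by 0.80 ± 0.12 and 0.77 ± 0.10. Of the 8 progenitor markers, 2 were higher (Ly6a and Kit) and 2 lower (Cd48 and Cd34), with a median of 0.11 (1 and 2 within the male libraries). Kit lost its call without library 1, 3 or 4 of Flt3-ITD/NHD13 or library 3 or 4 of Flt3-ITD/Runx1-HET.

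**Figure D4:**
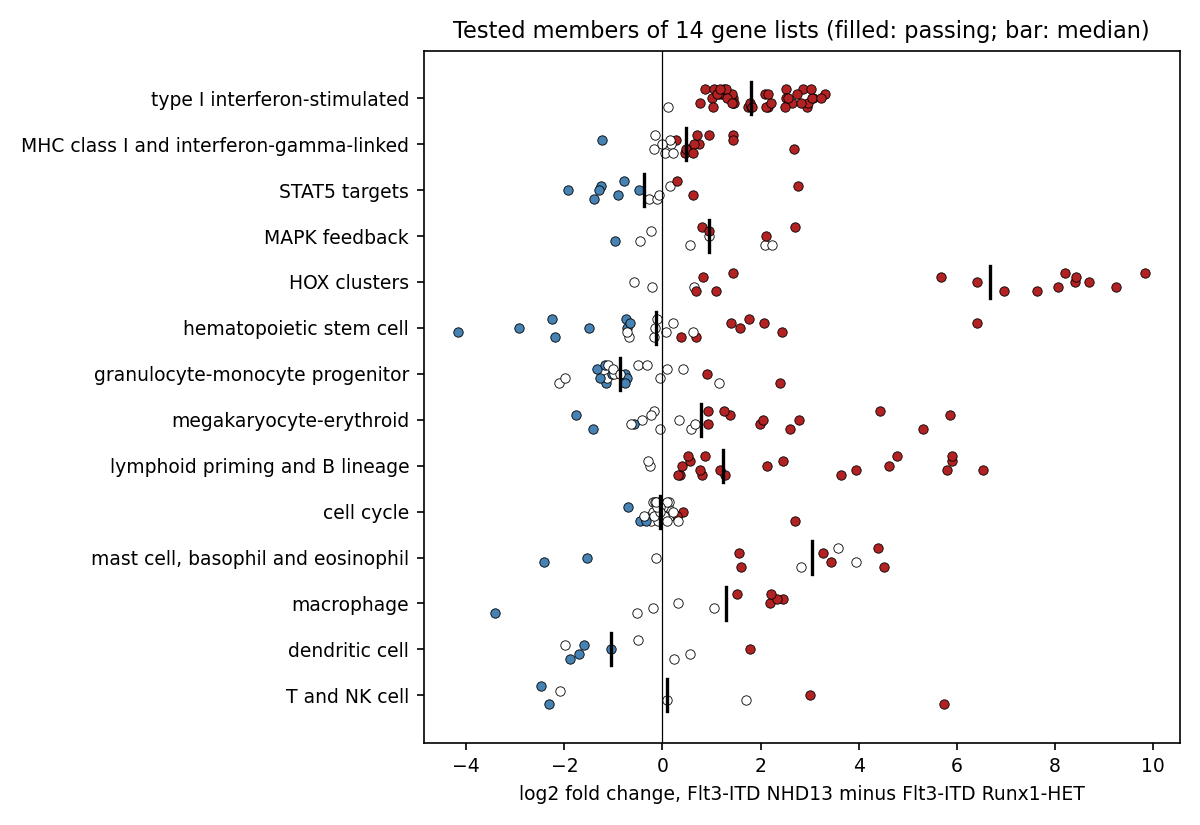
Log2 fold change (Flt3-ITD/NHD13 minus Flt3-ITD/Runx1-HET, horizontal axis) of each tested member of 14 gene lists, filled where the gene passed and open where it did not, with the median of each list as a bar. The medians run from -1.06 for dendritic cell genes to 6.69 for HOX genes, the last resting on fitted folds of genes with hardly any counts in Flt3-ITD/Runx1-HET.

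The genes with the largest differences at a mean log2 CPM of at least 2 belong to several cell types. Mab21l2 measured 45.2 to 60.9 CPM against 0.0997 to 0.410 CPM (7.69 ± 0.27, adjusted p = 5.86e-18), and Klhl4, a kelch family protein, measured 158 to 212 CPM against 1.18 to 2.69 CPM (6.62 ± 0.40). Igf1, insulin-like growth factor 1, measured 267, 347, 405 and 368 CPM against 6.42, 5.09, 4.78 and 8.20 CPM (5.82 ± 0.19, adjusted p = 3.23e-18). Gria2, a glutamate receptor subunit, was higher by 4.58 ± 0.35. Car1, Pf4, Pbx3, Ebf1, Cma1 and Lin28b complete the highest 10. At the other end, Tcrg-C1, a constant region of the T cell receptor gamma chain, measured 1.79, 2.11, 1.22 and 0.987 CPM against 66.0, 81.1, 105 and 96.4 CPM (-5.84 ± 0.30, adjusted p = 5.72e-14). Tspan7, a tetraspanin, measured 1.17 to 3.39 CPM against 41.5 to 102 CPM (-4.70 ± 0.36, adjusted p = 9.95e-10). Sparc, a matricellular protein, measured 2.53, 2.49, 3.77 and 6.53 CPM against 87.8, 101, 82.3 and 94.5 CPM (-4.55 ± 0.50, adjusted p = 1.13e-06). Bhlhe40, a basic helix-loop-helix repressor, measured 78.3 to 126 CPM in Flt3-ITD/Runx1-HET and was lower in Flt3-ITD/NHD13 (-3.72 ± 0.22). Ccn3 (-4.34 ± 0.35), Myh10 (-3.92 ± 0.29) and Akr1c12 (-3.76 ± 0.25) lay between them. Tpm3-rs7 (-4.70 ± 1.14, adjusted p = 0.0057) is a copy of a tropomyosin gene whose reads could be split with its parent, and AI593442 (-5.46 ± 1.37, adjusted p = 0.0072) had 1 library at 149 CPM. The fold change of AI593442 was -4.36 without that library (library 2 of Flt3-ITD/Runx1-HET) and -6.38 without library 3 of Flt3-ITD/NHD13. Neither Tpm3-rs7 nor AI593442 passed within the male libraries (adjusted p = 0.065 and 0.11).

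Markers of other blood cells also differed, and their part in the results above was not tested. Over 15 mast cell, basophil and eosinophil markers the summed level was 86.3 to 370 CPM in Flt3-ITD/NHD13 and 40.4 to 54.7 CPM in Flt3-ITD/Runx1-HET. Mcpt2 and Fcer1a were at 0 in Flt3-ITD/Runx1-HET, beside 12 and 41 counts in Flt3-ITD/NHD13. Mcpt1 had 0 counts in Flt3-ITD/NHD13 and 1 in Flt3-ITD/Runx1-HET. Of 12 tested, 6 were higher and 2 lower (2 and 2 within the male libraries). Cma1, mast cell chymase, measured 56.4, 121, 31.9 and 23.7 CPM against 4.11, 5.46, 0.199 and 0.527 CPM (4.51 ± 0.81, adjusted p = 0.00040). Its fold change was 3.86 without library 2 of Flt3-ITD/NHD13 and 5.11 without library 2 of Flt3-ITD/Runx1-HET. Cd200r3, a basophil receptor, was lower (-2.41 ± 0.51, adjusted p = 0.0016, and -3.07 without library 2 of Flt3-ITD/NHD13). For macrophage markers the sum over 12 genes was 81.9 to 101 CPM against 140 to 207 CPM, and 5 of 10 tested were higher and 1 lower (3 and 1 within the male libraries). The lower one, Adgre1 (F4/80), measured 9.20, 8.60, 8.61 and 12.8 CPM against 91.8, 85.8, 111 and 134 CPM (-3.42 ± 0.26, adjusted p = 3.07e-10), while the complement gene C1qb was higher by 2.45 ± 0.34.

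Dendritic cell markers summed to 150 to 204 CPM against 147 to 279 CPM, with 1 of 9 tested higher and 4 lower, also within the male libraries. Clec10a was lower (-1.88 ± 0.21, adjusted p = 1.28e-07), as were the class II chains H2-Aa (-1.70 ± 0.34), H2-Eb1 (-1.60 ± 0.43) and H2-Ab1 (-1.06 ± 0.18). Siglech had 0 counts in Flt3-ITD/Runx1-HET and only 5 in Flt3-ITD/NHD13, too few for a test. T and NK cell markers summed to 85.5 to 110 CPM against 269 to 392 CPM. Ncr1 was at 0 in both groups, Cd8a at 0 in Flt3-ITD/NHD13, and Cd3e and Gzma at 0 in Flt3-ITD/Runx1-HET. None of these had enough reads for a test, and Cd3e had only 1 count in Flt3-ITD/NHD13. Of 7 tested, 2 were higher and 2 lower, also within the male libraries. Among them Nkg7, a cytotoxic granule protein, measured 73.9, 45.4, 39.4 and 36.1 CPM against 216, 263, 349 and 246 CPM (-2.47 ± 0.25, adjusted p = 2.78e-07). Trbc2, a T cell receptor beta constant region, was higher, at 0.473 to 1.04 CPM against 0 to 0.234 CPM (adjusted p = 0.00043), so T cell receptor genes did not move together. The sums of stromal and endothelial markers overlapped, at 102 to 114 CPM against 89.5 to 113 CPM, and of 7 tested 1 was higher and 1 lower (0 and 0 within the male libraries). Pdgfrb, a growth factor receptor of stromal cells, was higher by 0.67 ± 0.19 (adjusted p = 0.012, and 0.052 without library 4 of Flt3-ITD/Runx1-HET). Col3a1, a collagen chain, was lower (-1.61 ± 0.43, adjusted p = 0.0077, and -1.11 with 0.073 without library 2 of Flt3-ITD/Runx1-HET).

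Other programs were mixed. Of 32 cell cycle genes 4 were higher and 3 lower (1 lower without library 2 of either group, 5 without library 4 of Flt3-ITD/Runx1-HET; 2 and 1 within the male libraries), with a median of -0.05. Cdk6, a kinase of the G1 phase, measured 791, 662, 669 and 612 CPM against 970, 1145, 1153 and 1157 CPM (-0.69 ± 0.13, adjusted p = 0.00034), and Mcm2, of the replication helicase, was higher by 0.41 ± 0.09. Of 13 cell cycle inhibitors and p53 targets, 3 were higher and 3 lower (2 and 2 within the male libraries). Pmaip1 (NOXA) was higher by 2.37 ± 0.37, while Cdkn1a (p21) at -1.21 ± 0.18 and Cdkn1c (p57) at -1.15 ± 0.21 were lower. Chromatin regulators had 6 of 22 higher and 0 lower (4 and 0 within the male libraries), among them the DNA methyltransferase Dnmt3b at 192, 202, 206 and 194 CPM against 134, 137, 121 and 118 CPM (0.64 ± 0.07, adjusted p = 6.44e-08). MYC and ribosome biogenesis genes had 4 of 22 higher and 0 lower (1 and 0 within the male libraries), between 1 and 5 as single libraries were left out, with 2 without library 2 or 4 of Flt3-ITD/NHD13 or library 1 of Flt3-ITD/Runx1-HET and 1 without library 4 of Flt3-ITD/Runx1-HET.

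Next, the same contrast was taken where Flt3-ITD is absent, as NHD13 minus Runx1-HET, from 8 other libraries. There 2050 genes passed, 991 higher and 1059 lower in NHD13. In all, 1320 genes passed in both contrasts, 44.7% of the calls with Flt3-ITD and 64.4% of those without, and 1267 of them had the same sign. The difference between the contrasts passed in 532 genes (3.70% of those tested), 311 higher and 221 lower with Flt3-ITD. In 295 of the 532 the 2 fold changes had opposite signs, counted whether or not either contrast passed. Of the 1320 genes that passed in both contrasts, 53 had opposite signs. Sex was not balanced without Flt3-ITD either: by Xist and Y-linked counts, library 1 of NHD13 and libraries 1, 2 and 3 of Runx1-HET were female. Only library 4 of Runx1-HET was male, so a count of the difference within the male libraries has no replicate there. Nothing is drawn from such a count. With a sex term in the fit, the difference passed in 520 genes.

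Lymphoid genes were the list with the most calls of this difference, 15 of 22 higher with Flt3-ITD and 0 lower. Without Flt3-ITD, 1 of the 22 was higher in NHD13 and 9 lower, with a median of -1.10 where it was 1.23 with Flt3-ITD. Cd79a measured 3.29 to 18.5 CPM in NHD13 and 15.9 to 39.8 CPM in Runx1-HET (log2 fold change -1.58, not passing), and its difference was 8.12 ± 1.18 (adjusted p = 0.00030). Il7r measured 9.79 to 12.5 CPM in NHD13 and 28.2 to 40.8 CPM in Runx1-HET. It was lower in NHD13 (-1.59 ± 0.31, adjusted p = 0.00060), and its difference was 7.49 ± 0.65 (adjusted p = 1.23e-07). Blnk, an adaptor of the B cell receptor, was lower without Flt3-ITD (-1.80 ± 0.44) and higher with it (3.64 ± 0.56), a difference of 5.44 ± 0.72 (adjusted p = 7.62e-05). Ebf1 had a difference of 6.08 ± 0.88 (adjusted p = 0.00030). Among the 6 groups, Flt3-ITD/Runx1-HET had the lowest mean of Cd79a, Il7r, Rag1, Ebf1 and Blnk; in Flt3-ITD alone Cd79a measured 8.84 to 73.4 CPM and Il7r 4.49 to 17.6 CPM.

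**Figure D5:**
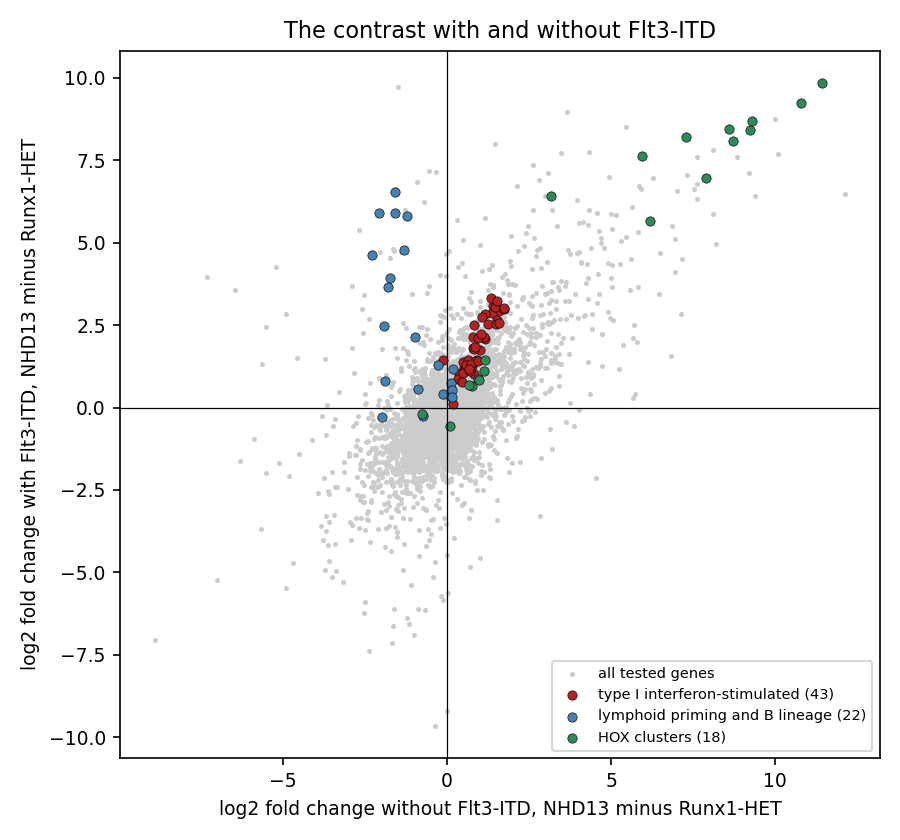
Log2 fold change of each tested gene with Flt3-ITD (vertical axis) against that without it (horizontal axis), both NHD13 minus Runx1-HET and from separate libraries. Of 18 HOX genes, 16 lie above 0 on the vertical axis, interferon-stimulated genes lie above 0 on the vertical axis with a median of 1.81 against 0.85, and 9 lymphoid genes that were lower without Flt3-ITD lie to the left.

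HOX and interferon-stimulated genes differed the same way without Flt3-ITD. Of the 18 tested HOX genes, 16 were higher in NHD13 than in Runx1-HET, and the difference passed in 1, Hoxb5 (3.25 ± 0.90, adjusted p = 0.035). Of the 43 interferon-stimulated genes, 33 were higher in NHD13, with a median of 0.85, and the difference passed in 5, all higher with Flt3-ITD. Tlr7 measured 19.2 to 22.6 CPM in NHD13 and 22.3 to 23.9 CPM in Runx1-HET, and its difference was 2.28 ± 0.27 (adjusted p = 1.97e-06).

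Further differences are given for the 6 highest and 6 lowest passing genes whose log2 CPM averaged 2 or more across the 16 libraries of the 4 groups. The lowest was that of Timp3. This gene, an inhibitor of metalloproteinases, measured 5.99, 12.1, 10.1 and 14.1 CPM in Flt3-ITD/NHD13 against at least 42.7 CPM in each Flt3-ITD/Runx1-HET library (-2.15 ± 0.35). Without Flt3-ITD it measured 11.3 to 40.8 CPM in NHD13 and 0.691 to 2.52 CPM in Runx1-HET (4.54 ± 0.43), so it passed in opposite directions and the difference was -6.69 ± 0.56 (adjusted p = 1.96e-07). Chst2, a sulfotransferase, likewise passed both ways, at -1.65 ± 0.23 with Flt3-ITD and 2.23 without, a difference of -3.88 (adjusted p = 3.69e-08). Sparc (-5.55 ± 0.68) and Tspan7 (-4.33 ± 0.49) had large differences too, and without Flt3-ITD neither passed (adjusted p = 0.21 and 0.61). Gfra1, a receptor subunit for a neurotrophic factor, was among these 6 highest at 4.53 (adjusted p = 1.09e-06), and Mboat2 (-3.11) and Ehd3 (-2.93) were among these 6 lowest. Within the same limit on expression the highest difference, 10.1 ± 1.83 (adjusted p = 0.0024), was that of Prg2, an eosinophil granule protein. It measured 48.8, 15.7, 10.1 and 85.0 CPM in Flt3-ITD/NHD13 and 7.98, 1.72, 1.10 and 2.17 CPM in Flt3-ITD/Runx1-HET, which did not pass (3.58 ± 1.26, adjusted p = 0.051), with a fold change of 2.88 without library 4 of Flt3-ITD/NHD13 and 4.60 without library 1 of Flt3-ITD/Runx1-HET. It spread from 9.79 to 450 CPM over the Runx1-HET libraries.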

How the data were processed

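The RNA of mouse hematopoietic progenitor cells was purified with a column kit and amplified with a template-switching cDNA kit, per the labels' protocols. The deposited values are raw counts per gene, made by the authors with STAR 3.0.4 and with featureCounts 1.4.5 of Subread, per the submitters' processing notes. Genome build, annotation and strand setting are not given in the sources used here, so reads of a gene and its antisense partner cannot be told apart. Of 41388 gene IDs in the deposited table, 40254 were paired with a symbol, and gene positions are from GENCODE on GRCm38.

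The counts of all 24 P14 libraries were fitted together with edgeR 4.0.16 in R 4.3.3 (TMM normalisation, filterByExpr by group, robust quasi-likelihood test, 1 mean per group, 18 residual degrees of freedom). Contrasts were Flt3-ITD/NHD13 minus Flt3-ITD/Runx1-HET, the same without Flt3-ITD, and the difference between them. P-values were adjusted by Benjamini-Hochberg over all 14394 tested genes at 0.05, and these genes held 99.9% of the counts. The fit was run on counts simulated from its own spread, with changes set only in genes of log2 CPM of at least 2. That simulation cannot check how real libraries vary, nor genes with fewer counts, so nothing is drawn from it. Members and lists were chosen with earlier results of these data known. The text names the targeted genes, the 10 highest and 10 lowest passing genes with a symbol, a mean log2 CPM of at least 2 and groups that did not overlap, up to 4 passing members of each list in each direction, and the 6 highest and 6 lowest differences, except where it says otherwise. Promoter windows were taken from RefSeq. Counting intervals are exact at 95% and, like the floor of 3 counts, cover counting error only, since PCR copies are not independent molecules. Alternatives were DESeq2 1.42.0, its size factors in edgeR, other filters, only the groups compared, each library left out, a replicate block, a sex term and male libraries alone, the last chosen after seeing the data. Some results are not reported here. Replicate pairs all differed by more than sampling noise.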

Additional observations from a re-analysis of the deposited data

Results flagged for a closer look

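Among 218 sets of 4 libraries (genes named above, in each of the 2 groups), 16 had 1 library far from the other 3, where chance flags about 1 in 20; the value given is the gap to the nearest library as a share of the group's range. In Flt3-ITD/NHD13, library 1 was lowest for Hoxc8 (0.942), Hoxc4 (0.942) and Gata2 (0.98) and highest for Dusp6 (0.95), at 83.5 CPM where the other 3 lay at 42.8 to 44.8 CPM. Library 2 was highest for Tal1 (0.907), library 3 lowest for Isg15 (0.844), and library 4 highest for Adgre1 (0.859) and lowest for Mab21l2 (0.945). In Flt3-ITD/Runx1-HET, library 1 was highest for Prg2 (0.844) and lowest for Cish (0.906) and Cdk6 (0.934). Library 2 was highest for AI593442 (0.957), library 3 was highest for Ifit3b (0.838) and lowest for Tpm3-rs7 (0.884), and the single count of Hoxc8 (1, library 2) and of Hoxc4 (1, library 3) stood against 0 in the others.

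For 46 of 110 named genes the contrast of NHD13 minus Runx1-HET differed with and without Flt3-ITD by edgeR's test of the difference. Over all tested genes the share was 3.70%. Some genes were named because they passed this test and others for large direct folds, so the count is a description. Of the 46, 24 lay above 0 and 22 below, and values are log2 differences. Beside Cd79a (8.12), Il7r (7.49), Ebf1 (6.08) and Blnk (5.44), the lymphoid and lymphocyte genes Igll1 (7.97), Rag1 (7.01), Trbc2 (5.59), Irf4 (3.02) and Tcf4 (0.486) lay above 0, while Tcrg-C1 (-5.71) and Nkg7 (-1.56) lay below. Of the myeloid, mast cell and antigen-presenting genes, Prg2 (10.1), Ly86 (2.35), C1qb (1.87) and Csf1r (1.38) lay above 0 and Adgre1 (-2.92), H2-Eb1 (-2.42), H2-Aa (-2.12) and Clec10a (-1.56) below.

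Signalling and cell cycle genes above 0 were Ccnd1 (2.29), Tlr7 (2.28), Id1 (1.35), Cdkn1a (0.952), Ifngr2 (0.624) and Ifngr1 (0.513). Those below 0 were Il18r1 (-2.95), Id2 (-1.69), Cdkn1c (-1.48), Nfia (-0.88) and Cdk6 (-0.748). Among the rest, Gfra1 (4.53), Hoxb5 (3.25), Gria2 (1.87), Ly6a (1.06) and Itgal (0.674) lay above 0. Timp3 (-6.69), Sparc (-5.55), Tspan7 (-4.33), Chst2 (-3.88), Mboat2 (-3.11), Ehd3 (-2.93), Bhlhe40 (-2.85), Mab21l2 (-2.41), Myh10 (-2.41), Akr1c12 (-2.24) and Tie1 (-1.27) lay below.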

How the results depend on the processing

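The 2954 calls became 3199 with DESeq2, 2985 with its size factors in edgeR, 2705 with no filter, 2722 at a mean CPM of at least 1, 2565 with only the 8 libraries compared and 2830 with a sex term. Leaving out 1 library at a time gave 2366 to 3089 calls, and 434 to 669 in place of the 532 differences with and without Flt3-ITD. No gene called in the direct comparison was called with the opposite sign under any of these settings. With a replicate block 2938 genes passed. Same-numbered libraries did not deviate together (correlations of -0.106 to 0.029 over 4 pairs, 0 of 4 best with its own number), so the numbers were not taken as pairs. Male libraries alone gave 1709 calls (961 higher, 748 lower) and 85 differences (34 higher, 51 lower), with fewer samples in the fit, and kept 1567 of the 2954 calls. In that fit Runx1-HET had only library 4, without a replicate. Nothing is therefore drawn from the number or direction of the differences among male libraries. Of 171 genes named by the rule, 46 lost their call within the male libraries, 4 under the block and 8 to 21 when 1 library was left out, and none reversed. Genes with few counts in 1 group, such as most HOX genes, have a fold whose size is limited by depth.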
